A study of Homo sapiens with 6 samples.

Results

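The EMP and PMP22 membrane protein family was studied in RNA-Seq counts of H1155 cells, a cell line of neuroendocrine large cell lung cancer. Its members were taken as the genes with the symbols EMP1, EMP2, EMP3 and PMP22, which are 4 of the 58735 genes counted. They were chosen by their difference between the groups, that is with the fold changes of these same libraries in view. Every difference between groups given for them is thus a description and is not used as a test, although they were part of the fit over all genes. The study asked what the transcriptional repressor GFI1 controls in lung cancer cells that grow without attachment, and compared 3 libraries of wild-type H1155 cells (WT) with 3 libraries of H1155 cells labelled as GFI1 knockout (GFI1-KO). Both groups were untreated and were grown in DMEM with 10% FBS. According to the study's methods, the GFI1-KO cells came from dual transfection with Cas9 plasmids carrying sgRNAs against the GFI1 promoter region, followed by sorting of single GFP+ clones. The labels number the libraries from 1 to 3 in each group and do not say how many clones or separate cultures they represent, so that the spread between libraries may be technical, and a difference of 1 clone from its parent line cannot be told apart from an effect of the edit.

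The 4 proteins are small glycoproteins that cross the membrane 4 times and belong to the PMP22/claudin superfamily, together with the claudins of tight junctions and the gamma subunits of calcium channels. PMP22 is a component of compact peripheral myelin made by Schwann cells, and duplication of its gene causes Charcot-Marie-Tooth disease type 1A. EMP1, EMP2 and EMP3 are its closest relatives, are found in epithelia and many cancers, and have been linked to adhesion, integrin traffic and growth control.

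The 250 bases upstream of the RefSeq start of EMP1 (GRCh38.p14, chr12:13196476-13196725, plus strand), of EMP2 (chr16:10580599-10580848, minus strand) and of the second of the 2 starts of EMP3 (chr19:48325749-48325998, plus strand) are shown because EMP1 and EMP2 mark the ends of the base composition of the family and the 3 windows hold every AAATC and TGANTCA match found at the 4 genes. Capitals mark AAATC, the core of the GFI1 recognition motif, and TGANTCA, searched on both strands. TGANTCA was taken as a loose form of the AP-1 motif, with any base allowed at N.
EMP1: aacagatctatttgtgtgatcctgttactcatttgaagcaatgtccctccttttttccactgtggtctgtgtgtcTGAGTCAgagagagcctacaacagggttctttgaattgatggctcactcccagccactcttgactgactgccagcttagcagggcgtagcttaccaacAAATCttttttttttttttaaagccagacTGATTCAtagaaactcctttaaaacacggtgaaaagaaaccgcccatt
EMP2: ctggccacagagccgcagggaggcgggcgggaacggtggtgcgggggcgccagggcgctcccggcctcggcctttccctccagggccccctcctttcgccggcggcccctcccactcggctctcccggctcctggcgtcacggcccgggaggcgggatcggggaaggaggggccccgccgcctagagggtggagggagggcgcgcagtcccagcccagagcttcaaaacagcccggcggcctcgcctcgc
EMP3: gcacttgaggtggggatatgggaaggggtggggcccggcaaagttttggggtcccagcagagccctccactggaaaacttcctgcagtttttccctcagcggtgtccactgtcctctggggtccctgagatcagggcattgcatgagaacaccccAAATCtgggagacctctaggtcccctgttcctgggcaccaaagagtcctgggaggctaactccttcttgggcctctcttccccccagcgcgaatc
The EMP1 window had a GC content of 42.4% with 3 CpG dinucleotides, and 17.1% of 35116 windows of the same length at the starts of 27305 genes had a lower GC content. The EMP2 window was 77.2% GC with 27 CpG dinucleotides, and 93.2% of the windows had a lower GC content. Medians over all windows were 58.0% GC and 11 CpG dinucleotides. At EMP1, TGAGTCA lay 175 to 169 bases before the start, TGATTCA 48 to 42 bases before it and AAATC 77 to 73 bases before it. At least 1 TGANTCA was present in 6.57% of all windows and at least 2 in 0.402%, whereas AAATC was present in 29.9%. The EMP3 window held AAATC 95 to 91 bases before the start. Neither motif was found in the windows of EMP2, of the first EMP3 start or of the 3 starts of PMP22. GGAATG, the TEAD motif, was present in 11.9% of all windows and in none of the 7 windows of the family. GGGCGG, the SP1 motif, was found in 42.6% of all windows and in 5 of the 7, 1 match each, at EMP1, EMP2, the first EMP3 start and the second and the third PMP22 start. Such matches describe the letters of these windows and were not tested as binding sites.

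GFI1, the edited gene, was counted in every library. The WT libraries had 153, 106 and 125 counts, and the libraries labelled GFI1-KO had 174, 188 and 170. Its normalized counts (counts scaled by edgeR's TMM effective library sizes to the mean library) averaged 135 ± 19.9 in WT and 168 ± 9.28 under the GFI1-KO label (SD, n = 3 each). The RNA counts of GFI1 thus go against the label, although counts per gene do not show which part of GFI1 the reads came from. Protein was not measured in these libraries. The study presented the deletion with an immunoblot of GFI1 and described the knockout cells as GFI1-negative. Every direction below rests on the labels. Library totals lay between 14882914 and 17692882 counts, at which the floor of 3 counts corresponds to 0.170 to 0.202 CPM. The edgeR test compared 17514 genes and called 72.4% of them (threshold 0.05 on the adjusted p), 36.5% as higher in GFI1-KO and 35.9% as lower, and for 74.4% of them the 2 groups had no overlap in normalized counts. All 4 members passed the filter on low counts, 3 being called higher and 1 lower, and none of the 4 had overlapping groups. These counts are read against those shares only as a description, since this contrast was known when the members were chosen.

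EMP1 (ENSG00000134531), on the plus strand of chromosome 12 from 13196716 to 13219939 (GRCh38, as are all coordinates here), encodes epithelial membrane protein 1, a surface protein of squamous and other epithelia. It had 16, 13 and 19 counts in the WT libraries against 384, 359 and 356 in those labelled GFI1-KO. The lowest count labelled GFI1-KO was thus well above the highest WT count, and the 95% Poisson intervals of single libraries, which cover counting error only, ended at 29.7 in WT and began at 320 in the other group. Normalized counts averaged 16.9 ± 2.81 and 347 ± 16.5 (SD, n = 3 each), 20.3-fold higher under the GFI1-KO label by the fitted log2 fold change of 4.35 (SE 0.15). Of all tested genes, 99.8% had a lower log2 fold change, and 126, EMP1 included, had one at least as large in either direction. None of the 50-base words of its transcripts occurred in another gene, and no other annotated gene overlapped it.

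EMP2 (ENSG00000213853), at 10528422 to 10580698 of chromosome 16 on the minus strand, encodes epithelial membrane protein 2, which is known to control the surface display of integrins and caveolins. Its counts were 1249, 1198 and 1212 in the WT libraries and 1893, 1895 and 1980 in the libraries labelled GFI1-KO. The groups did not overlap and the spread within each was small. EMP2 went from 1292 ± 29.4 to 1821 ± 37.0 normalized counts (SD, n = 3 each), a log2 fold change of 0.50 (SE 0.04) and a fold of 1.41, which exceeded that of 74.0% of the tested genes. Its fold change was the smallest of the 4 in size and had the smallest SE.

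EMP3 (ENSG00000142227), on the plus strand of chromosome 19 from 48321509 to 48330553, encodes epithelial membrane protein 3, a transcript best known from gliomas and from mesenchymal-type tumours. It had 68, 88 and 82 counts in the WT libraries against 54, 54 and 52 in those labelled GFI1-KO. It was the only member that was lower in the latter, and all 3 WT libraries lay above them. The Poisson interval of the lowest WT library, 52.8 to 86.2, overlapped that of the highest library labelled GFI1-KO, 40.6 to 70.5, so the gap between those libraries was within counting error. Normalized counts were 84.4 ± 14.0 in WT and 50.5 ± 1.38 in the libraries labelled GFI1-KO (SD, n = 3 each), with a log2 fold change of -0.74 (SE 0.18), lower by a factor of 1.66. In a fit with offsets for GC content and length, called the GC-corrected fit from here on, its log2 fold change was -1.33. The counts of EMP3 are uncertain, as it shares 463 bases with CCDC114 (ODAD1 in GENCODE) on the opposite strand and 13.6% of its 50-base words with that gene, and the strand setting of the counting was not given in the sources used here. CCDC114 itself had between 7 and 11 counts per library.

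PMP22 (ENSG00000109099), at 15229777 to 15265357 of chromosome 17 on the minus strand, encodes the peripheral myelin protein of the family. Its counts were 42, 27 and 28 in the WT libraries and 91, 62 and 50 in the libraries labelled GFI1-KO. The groups were close to touching, and the intervals of their nearest libraries overlapped, 30.3 to 56.8 for 42 counts and 37.1 to 65.9 for 50. Normalized counts were 34.1 ± 7.72 in WT and 64.2 ± 20.4 in the libraries labelled GFI1-KO (SD, n = 3 each), a log2 fold change of 0.91 (SE 0.24) and a fold of 1.87. This was the member that depended most on a single library, with a log2 fold change of 0.63 (SE 0.26) when the first library labelled GFI1-KO was left out and 1.10 (SE 0.28) when the first WT library was left out. Other annotated genes that overlap PMP22 had at most 1 count in any library, and 4.79% of its 50-base words occurred elsewhere.

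**Figure D1:**
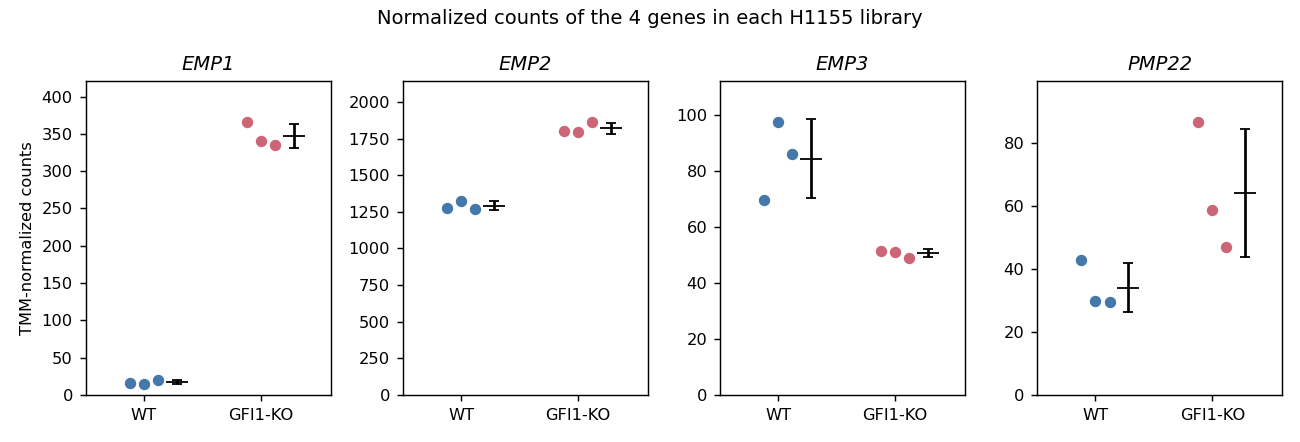
Normalized counts (y axes, each on its own linear scale from 0) of EMP1, EMP2, EMP3 and PMP22 in the 3 WT libraries and the 3 libraries labelled GFI1-KO, with a point for each library, and beside them a horizontal line for the mean and a bar for the SD. EMP1 (16.9 to 347), EMP2 (1292 to 1821) and PMP22 (34.1 to 64.2) are higher and EMP3 (84.4 to 50.5) is lower in the libraries labelled GFI1-KO.

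The members were next compared with each other per length, as FPKM from the counts, the deposited gene length and the library total. In every WT library the order of levels was EMP2, EMP3, PMP22 and EMP1, with 9.0 ± 0.206, 3.07 ± 0.510, 0.642 ± 0.145 and 0.131 ± 0.0218 FPKM (SD, n = 3). Each pair of neighbours in that order was separated in all 3 libraries. In every library labelled GFI1-KO the order was EMP2, EMP1, EMP3 and PMP22, with 12.5 ± 0.262, 2.66 ± 0.124, 1.82 ± 0.0483 and 1.20 ± 0.378 FPKM (SD, n = 3). Here the closest neighbours were EMP3 and PMP22, whose levels in the first library were 1.85 and 1.61 FPKM. With the deposited gene length EMP1 thus moved from the lowest to the second highest level of the family, whereas EMP2 was the highest throughout. The second rank of EMP1 depended on that length, as given below. Among all tested genes, 2.19% had a lower mean FPKM than EMP1 in WT and 38.8% in the libraries labelled GFI1-KO. For EMP2 the corresponding shares were 67.1% and 74.6%, for EMP3 41.8% and 31.8%, and for PMP22 15.7% and 24.6%.

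The summed level of the family was 12.8 ± 0.557 FPKM in WT and 18.2 ± 0.407 FPKM in the libraries labelled GFI1-KO (SD, n = 3 each), a ratio of 1.42. EMP1 made up 1.02% ± 0.194 of that sum in WT and 14.6% ± 0.385 in the libraries labelled GFI1-KO (SD, n = 3 each). The share of EMP3 was 23.8% ± 3.03 and 9.99% ± 0.268, and that of PMP22 was 5.03% ± 1.32 and 6.54% ± 1.93. EMP2 held 70.1% ± 1.69 and 68.9% ± 2.35, a difference smaller than the SD of the second group, but its direction turned with the length used. The FPKM of EMP2 was 70.1 ± 12.8 times that of EMP1 in WT and 4.73 ± 0.285 times in the libraries labelled GFI1-KO, and that of EMP3 was 24 ± 6.75 times and 0.685 ± 0.0231 times that of EMP1. The order of EMP1 and EMP3 in the second group depended on the length used. With the canonical GENCODE transcript in place of the deposited gene length, EMP1 held 0.709% of the sum in WT and 11.1% in the libraries labelled GFI1-KO, EMP3 held 32.0% and 14.7%, EMP2 held 62.7% and 67.6%, and PMP22 held 4.64% and 6.61%.

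**Figure D2:**
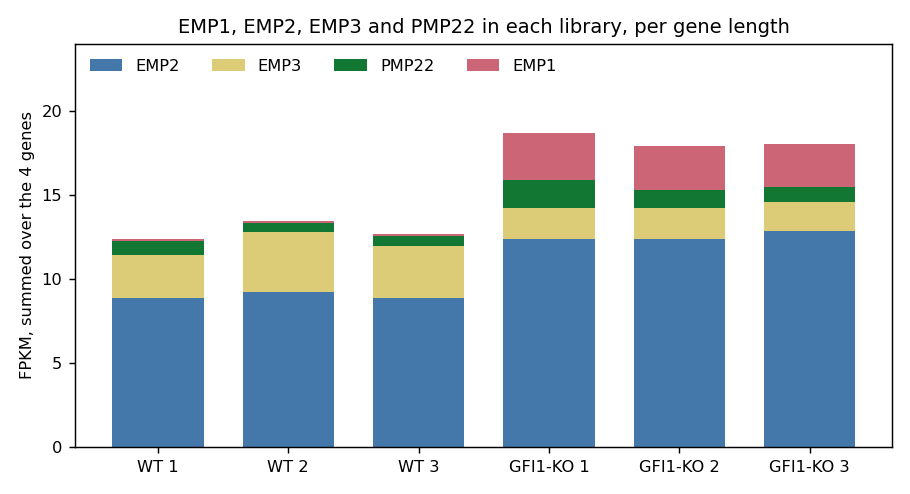
FPKM of EMP2, EMP3, PMP22 and EMP1 stacked for each library (y axis, linear from 0; bars are single libraries, so there are no error bars). EMP2 fills most of every bar, and EMP1 is a thin band of at most 0.154 FPKM in the WT libraries and a band of at least 2.57 FPKM in those labelled GFI1-KO.

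Across all tested genes the log2 fold changes followed the GC content of the transcripts, with a Spearman rho of 0.578 over genes, which share the same 6 libraries and are not independent. Genes of higher GC content thus tended to be higher in the libraries labelled GFI1-KO. The canonical transcripts of the members had a GC content of 42.6% for EMP1, 46.4% for PMP22, 47.4% for EMP2 and 59.9% for EMP3, so that the 3 members with the lower GC content were the higher ones in the libraries labelled GFI1-KO. In the GC-corrected fit the log2 fold changes were 4.71 for EMP1, 0.63 for EMP2, -1.33 for EMP3 and 0.95 for PMP22, each farther from 0 than without them. None of the 4 changed sign under any normalization, filter, test or left-out library that was tried.

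**Figure D3:**
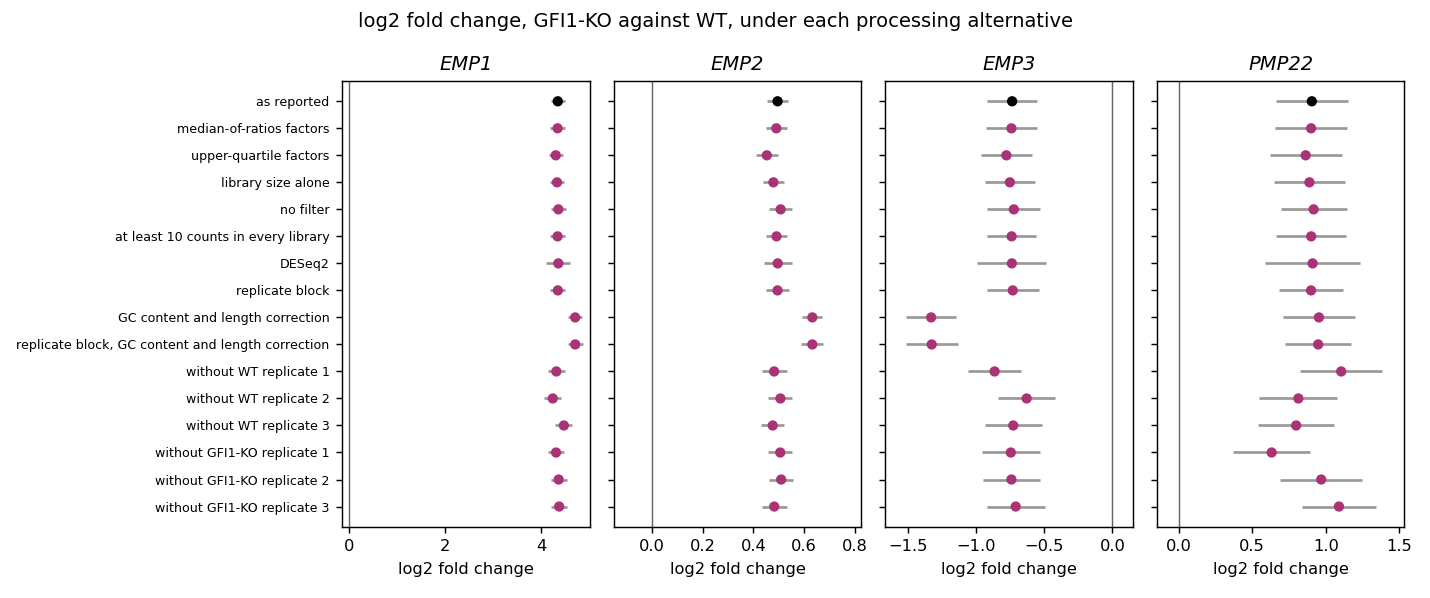
Log2 fold change of each member (x axes, each on its own scale, libraries labelled GFI1-KO against WT, with bars for the SE) as reported and each alternative (rows). All estimates keep their side of 0, EMP3 lies farthest from 0 at -1.33 when GC-corrected, and PMP22 varies from 0.63 to 1.10 with the library left out.

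The genes next to the members on their chromosomes, the 2 nearest protein-coding ones on each side, gave the local context of each member. Of these 16 neighbours 9 were tested, 2 being higher and 5 lower, where 36.5% and 35.9% of all tested genes were. Their median log2 fold change was -0.31 compared with 0.000495 for all tested genes, and GC-corrected values of the neighbours are not given here. Next to EMP1, FAM234B (54.2 kb away) had a log2 fold change of -0.43 (SE 0.05) and ATF7IP (1146 kb away), which encodes a chromatin cofactor of the histone methyltransferase SETDB1, one of -0.85 (SE 0.04), whereas GSG1 and GRIN2B were too low to be tested, with at most 3.49 normalized counts on average in a group. Next to EMP2, ATF7IP2 was lower (log2 fold change -0.58, SE 0.19) and NUBP1, an iron-sulfur cluster assembly factor, was higher (0.59, SE 0.10), with counts that are uncertain as NUBP1 overlaps TVP23A on the opposite strand, while TEKT5 and GRIN2A were not tested. Next to EMP3, SYNGR4 was higher (0.46, SE 0.05) and TMEM143 lower (-0.31, SE 0.14, adjusted p = 0.0486, edgeR), and neither CCDC114 (-0.26, SE 0.42) nor ZNF114 (0.23, SE 0.20) passed the threshold. Next to PMP22, HS3ST3B1, a heparan sulfate sulfotransferase 880 kb away, was the only one tested and had a log2 fold change of -1.33 (SE 0.12), while CDRT15, TEKT3 and CDRT4 were not tested. The counts of HS3ST3B1 are uncertain, as 10.3% of its transcript words occurred in other genes and a noncoding gene overlaps it on the same strand. That noncoding gene had 88.9 normalized counts on average in WT and 41.6 in the libraries labelled GFI1-KO.

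The protein-coding genes whose pattern over the 6 libraries was most like that of each member were found among 11211 genes with a mean of at least 100 normalized counts, by the root-mean-square (RMS) difference of centred log2(normalized count + 1). For EMP1 they were ID3, an inhibitor of basic helix-loop-helix transcription factors (RMS 0.172), LAMA2, the alpha 2 chain of laminin (0.308), and SMAD6, an inhibitory SMAD (0.369). ID3 had 141 normalized counts on average in WT and 2676 in the libraries labelled GFI1-KO, LAMA2 had 321 and 4353, and SMAD6 had 11.1 and 219. The genes most like EMP2 were GGT7 (0.0165), SDK1 (0.0187) and TXN2 (0.0195), whose log2 fold changes lay between 0.51 and 0.53. For EMP3 they included TMEM131L (0.0771) and TMTC2 (0.0775), and for PMP22 they were CFAP410 (0.217), TBC1D22A (0.229) and ZSCAN20 (0.231). The counts of CFAP410 are uncertain, as 52.8% of its transcript words occurred in other genes. The likeness is a description of 6 libraries in 2 groups, in which genes with the same fold change are alike.

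The wider superfamily was examined through 3 lists. Of 13 other relatives outside the claudins, 6 were tested, of which 2 were higher, 3 lower and 1 not called (72.4% of all tested genes were called), with a median log2 fold change of -0.14. GSG1L, an auxiliary subunit of AMPA receptors, fell from 71.5 ± 13.0 to 21.8 ± 4.26 normalized counts (SD, n = 3 each; log2 fold change -1.71, SE 0.24, adjusted p = 4.74e-07, edgeR). CLDND1 fell from 1974 ± 19.5 to 1302 ± 18.7 (log2 fold change -0.60), although its GC-corrected estimate was -0.05 (adjusted p = 0.317, edgeR) and 11.8% of its 50-base words occurred in other genes. TMEM178B fell by 0.16 on the log2 scale and PERP, a desmosomal protein and p53 target, rose by 0.10 (adjusted p = 0.04, edgeR), and both calls were lost under several alternatives, adjusted p being 0.113 and 0.129 with DESeq2. When GC-corrected, TMEM178B was at 0.0026 on the log2 scale (adjusted p = 0.975, edgeR) and PERP at 0.49 (adjusted p = 1.81e-10, edgeR). TMEM114 rose by 1.14 on the log2 scale, or 0.37 when GC-corrected (adjusted p = 0.259, edgeR). TMEM47, a relative found at adherens junctions, had 5.66 ± 1.63 and 4.73 ± 0.928 normalized counts (SD, n = 3 each) and was not tested.

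Claudins form the strands of tight junctions. Of 24 claudin genes 12 were tested, of which 5 were higher, 2 lower and 5 not called (36.5% and 35.9% of all tested genes were higher and lower). Their median log2 fold change was 0.55, and 4 had no count in any library. When every library had to reach 10 counts, 4 claudins were called, 2 of them as higher, and CLDN1 and CLDN5 were not tested. CLDN1, the main claudin of the epidermal barrier, rose from 4.24 ± 0.170 to 69.4 ± 7.5 normalized counts (SD, n = 3 each; log2 fold change 4.0, SE 0.32, adjusted p = 1.73e-11, edgeR). CLDN5, the claudin of endothelium, rose from 10.6 ± 1.40 to 48.6 ± 10.9 (log2 fold change 2.19, or 1.39 when GC-corrected), and CLDN7 from 12.8 ± 3.36 to 55.6 ± 13.4. CLDN4 fell from 678 ± 43.4 to 593 ± 23.2 (log2 fold change -0.19, adjusted p = 0.00846, edgeR), a call lost with DESeq2 (adjusted p = 0.0504) and in edgeR (adjusted p = 0.0624) without the third library labelled GFI1-KO, whereas its GC-corrected log2 fold change was -0.72 (adjusted p = 1.94e-10, edgeR). CLDN12 fell by 0.42 on the log2 scale, whereas its GC-corrected log2 fold change was 0.15, and its counts are uncertain because it overlaps GTPBP10 and CDK14 on the same strand.

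The gamma subunits of voltage-gated calcium channels, several of which are chaperones of AMPA receptors, are the family's other large branch. Of 8 genes 5 were tested, all 5 being called, 3 higher and 2 lower, where 72.4% of all tested genes were called. Their median log2 fold change was 0.23 compared with 0.000495 for all tested genes, and the other 3 genes had no count. CACNG4 fell from 33.9 ± 5.96 to 2.84 ± 3.42 normalized counts (SD, n = 3 each; log2 fold change -3.52, SE 0.49, adjusted p = 4.42e-07, edgeR). CACNG6 fell by 0.66 on the log2 scale, with an adjusted p of 0.100 from DESeq2 and of 0.0968 and 0.0975 from edgeR without the first WT library or the second library labelled GFI1-KO, and a GC-corrected log2 fold change of -1.36 (adjusted p = 3.94e-05, edgeR). CACNG8 rose from 168 ± 11.5 to 317 ± 10.7 and CACNG2 from 235 ± 7.02 to 359 ± 15.9, the latter sharing 31.3% of its 50-base words with an overlapping noncoding gene. CACNG7 had a log2 fold change of 0.23, which became -0.42 when GC-corrected.

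Proteins reported to bind or accompany EMP or PMP22 proteins were examined as a list of 15 genes, all of which were tested, 10 being higher and 5 lower, where 36.5% and 35.9% of all tested genes were. Their median log2 fold change was 0.33 compared with 0.000495 for all tested genes, and in the GC-corrected fit 12 were called, 11 of them as higher. Over all genes that fit called 10600, compared with 12680 without the correction, and 54.2% of the 10600 were higher. That fit left out genes of unknown GC content, and the share of its tested genes that were called is not given here. CAV1, the main coat protein of caveolae and a partner of EMP2, rose from 74.2 ± 10.6 to 295 ± 4.08 normalized counts (SD, n = 3 each; log2 fold change 1.98, SE 0.12, adjusted p = 3.54e-14, edgeR). P2RX7, an ATP-gated channel that binds members of the family, rose from 50.8 ± 5.13 to 115 ± 4.93, with 30.4% of its 50-base words found in other genes. Among the integrins, ITGB3 rose from 29.7 ± 3.96 to 88.4 ± 12.4, with 34.9% of its 50-base words found elsewhere. ITGA6, a laminin receptor subunit that PMP22 has been found with, rose from 270 ± 5.84 to 575 ± 16.8 (log2 fold change 1.09, adjusted p = 3.26e-13, edgeR). ITGAV had a log2 fold change of 0.12 (adjusted p = 0.0084, edgeR), with adjusted p of 0.0898 under upper-quartile factors, 0.0779 without the second WT library and 0.0588 without the first library labelled GFI1-KO, whereas its GC-corrected log2 fold change was 0.67 (adjusted p = 1.16e-14, edgeR). ITGB1, the fibronectin receptor subunit and a partner of EMP2, had 4488 ± 24 and 4158 ± 80.7 normalized counts (SD, n = 3 each) and a log2 fold change of -0.11, which became 0.38 when GC-corrected. OCLN, a tight junction protein, fell from 159 ± 8.92 to 76.2 ± 15.3 (log2 fold change -1.06, adjusted p = 3.58e-07, edgeR; -0.54 when GC-corrected). PTK2, the focal adhesion kinase that EMP2 is known to bind, fell by 0.28 on the log2 scale, with a GC-corrected log2 fold change of -0.01 (adjusted p = 0.811, edgeR).

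Schwann cell and myelin genes, the setting in which PMP22 is best known, were a list of 14, of which 10 were tested, 5 being higher, 3 lower and 2 not called, where 72.4% of all tested genes were called. Their median log2 fold change was 0.33 compared with 0.000495 for all tested genes, and in the GC-corrected fit all 10 were called, 5 of them as higher. Over all genes the GC-corrected fit called 10600, of which 54.2% were higher, and the share of its tested genes that were called is not given here. EGR2, the transcription factor that drives peripheral myelin genes, rose from 51.1 ± 4.10 to 213 ± 29.7 normalized counts (SD, n = 3 each; log2 fold change 2.06, SE 0.15, adjusted p = 1.59e-12, edgeR). NAB2, a corepressor of EGR proteins, rose from 499.8 ± 10.1 to 1142 ± 64.5 (log2 fold change 1.19, or 0.58 when GC-corrected) and overlaps STAT6 by 69 bases on the opposite strand. MBP, which encodes myelin basic protein, fell from 223 ± 32.8 to 48.6 ± 6.92 (log2 fold change -2.19, SE 0.15, adjusted p = 7.45e-13, edgeR). NAB1, the other corepressor, fell by 0.66 on the log2 scale, with a GC-corrected log2 fold change of -0.28. S100B fell by 0.53 (adjusted p = 0.0426, edgeR), a call that was lost with DESeq2 (adjusted p = 0.162), with no filter (adjusted p = 0.0648) and in 4 of the 6 fits without 1 library, and its GC-corrected log2 fold change was -0.79 (adjusted p = 0.00434, edgeR). SOX10, a defining factor of the Schwann lineage, had 3.58 ± 3.23 and 9.16 ± 3.84 normalized counts (SD, n = 3 each) and was not tested, and MAG and GJB1 had no count in any library.

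Marker lists described the cells, and their calls are to be read beside the 36.5% of all tested genes called higher and the 35.9% called lower. All 9 neuroendocrine markers were tested, 6 being higher and 3 lower, with a sum of 28524 to 29197 normalized counts over the WT libraries and 35579 to 36038 over the libraries labelled GFI1-KO. SYP, NCAM1 and CHGA had the largest increases, with log2 fold changes of 1.21, 1.12 and 0.67, that of CHGA being 0.02 when GC-corrected. NEUROD1 fell by 0.40 on the log2 scale, with a GC-corrected log2 fold change of -0.15. INSM1 fell by 0.08, with a GC-corrected log2 fold change of -0.78 (adjusted p = 3.99e-16, edgeR), its call without the correction being lost with DESeq2 (adjusted p = 0.0503) and without 1 library in 4 of 6 fits. Of 6 mesenchymal-like markers 5 were tested and all 5 were higher, with a median log2 fold change of 1.93 and a sum of 2331 to 2427 and 5254 to 5348 normalized counts, YAP1 (3.74), CAV1 (1.98) and CD44 (1.93) having the largest increases and AXL being at 1.72 ± 1.57 and 3.79 ± 0.940 normalized counts. Of 5 epithelial markers 4 were tested, 1 higher and 2 lower, with a sum of 3385 to 3568 and 3988 to 4375. KRT8 rose by 0.45 on the log2 scale, or 0.03 when GC-corrected, whereas CDH1 fell by 2.31 and EPCAM fell by 2.23. The counts of KRT8 are uncertain, as 16.1% of its transcript words occurred in other genes, KRT18 among them. The 6 fibroblast markers summed to 3142 to 3227 and 2219 to 2298, 1 (COL3A1, 5.75) being higher and 3 (PDGFRB, -3.24, COL1A2, -0.54, and COL1A1, -0.41) lower of 4 tested, and DCN was at 0 in every library. The call of COL1A1 was lost with DESeq2 (adjusted p = 0.0842) and without the third library labelled GFI1-KO (adjusted p = 0.0611), and its GC-corrected log2 fold change was -0.89. The 3 endothelial markers summed to 445 to 502 and 220 to 248, PECAM1 being lower (-1.12). No haematopoietic marker was tested, their sum being at most 8.86, with HBB at 0 in every library and PTPRC at 0 in all those labelled GFI1-KO. In bulk RNA, fewer cells of a type and less RNA per cell cannot be told apart, and the part of these marker differences in the values of the EMP and PMP22 family was not tested.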

How the data were processed

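Poly-T-selected RNA of 3 WT and 3 GFI1-KO H1155 libraries was sequenced on a NovaSeq system. The authors deposited whole-number counts per gene without normalization, with each gene's length in bases. The study's methods name Hisat2 and featureCounts, whereas the submitters' processing notes name Bowtie2, HTSeq and hg38. Which of them made the table, the strand setting and the treatment of reads matching several places were not given in the sources used here, so that counts of overlapping and near-identical genes are uncertain. Coordinates are those of the deposited table.

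Counts were normalized by TMM and tested with edgeR 4.0.16 in R 4.3.3 (filterByExpr, quasi-likelihood F test, Benjamini-Hochberg adjustment over all tested genes, adjusted p at most 0.05, no fold change minimum). The SE was taken as the size of the fitted coefficient over the root of its F statistic. FPKM was computed from the counts, the deposited gene length and the library total. Groups came from the labels. The 4 members, the gene lists and the alternatives were chosen with earlier results of these data known. The alternatives were DESeq2 1.42.0, other normalizations, filters and thresholds, the replicate number as a block, offsets for GC content and length (natural splines with 5 degrees of freedom, GC content known for 99.1% of genes), each library left out in turn, and the canonical transcript length, which was chosen after seeing the data. Same-numbered libraries were not paired by any source used here. Intervals are exact 95% Poisson intervals, and with the floor of 3 counts they cover counting error only, reads copied by PCR not being independent.

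Genes were named by a rule: the members, GFI1, the 2 nearest protein-coding genes on each side of a member, the 3 genes most alike over the libraries, and in each list the 3 largest increases and decreases past the threshold together with PERP, TMEM47, ITGB1, ITGAV, ITGA6, CAV1, P2RX7, SOX10 and EGR2. Some genes that this rule names are not reported here. AXL, MAG, GJB1, DCN, HBB and PTPRC, and ITGB5 and PRX as labels in a plot, were named after their values were seen. A named gene sharing over 10% of its 50-base transcript words with other genes in GENCODE release 44 was called uncertain or given with that share. Promoter sequences are from RefSeq (GRCh38.p14), with starts found for all 4 members. The scripts were tested on simulated counts. Python 3.11.15, pandas 2.3.3 and matplotlib 3.10.9 were used.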

Additional observations from a re-analysis of the deposited data

How the results depend on the processing

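The direction of all 4 members was kept under every alternative. With upper-quartile factors EMP2 had a log2 fold change of 0.45. With offsets for GC content and length the log2 fold changes were 4.71 for EMP1, 0.63 for EMP2 and -1.33 for EMP3, and with the replicate block added to those offsets 4.71, 0.63 and -1.33. The replicate block alone gave 4.35, 0.49, -0.73 and 0.90 for EMP1, EMP2, EMP3 and PMP22 and called 12573 genes compared with 12680. Deviations from the group means of same-numbered libraries correlated with r of -0.00355, 0.0166 and 0.0235, and those of other pairs with -0.0517 to 0.0426, so the numbers are not used as pairs. Over the fits without 1 library the log2 fold changes lay between 4.24 and 4.47, 0.48 and 0.51, -0.86 and -0.63, and 0.63 and 1.10. EMP1 held 11.1% of the summed FPKM of the libraries labelled GFI1-KO with the canonical transcript length compared with 14.6%. Of the 13 relatives, 5 were called by edgeR, compared with 3 with DESeq2, 3 with the GC content and length offsets, 3 with those and the replicate block, and 3 to 5 without 1 library (3 without the third WT library and 3 without the second library labelled GFI1-KO). Of the claudins 7 were called, 5 of them as higher, compared with 4, of which 2 were higher, when every library had to reach 10 counts, for which fewer genes were tested. Of the 39 distinct genes called in the 5 lists, 7 changed sign and 7 lost their call with the GC content and length offsets. These groups overlap, TMEM178B being among the genes in both. In each alternative fit that tested them at the same threshold, 22 of the 39 kept sign and call. The cause of these changes was not tested. Counts per library were lowest for EMP1 in WT, 13 to 19, and were 27 to 91 for EMP3 and PMP22, so that the WT level and the fold of EMP1 rest on few counts. The planned RefSeq transcript length was not run.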
